A study of Mus musculus with 40 samples.

Results

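The receptors examined for the cytokines applied in this study, and 1 related chain, are 10 mouse genes: *Il1r1* and *Il1rap* for IL-1, *Il6ra*, *Il6st* and *Osmr* of the IL-6 family, *Tnfrsf1a* and *Tnfrsf1b* for TNF, and *Tgfbr1*, *Tgfbr2* and *Tgfbr3* for TGF-β. They were chosen by name, with earlier results of these data known, and were found by their Ensembl identifiers among the 55487 genes of the count table. All 10 had at least 1 count in at least 1 of the 40 libraries. The question was which of 2 cell types holds their transcripts, without stimulus and after each stimulus.

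Receptors of these families work as complexes. IL-1α and IL-1β bind the IL-1 receptor encoded by *Il1r1*, which signals once the accessory chain encoded by *Il1rap* has joined it. IL-6 binds the chain encoded by *Il6ra* and signals through gp130, the shared chain encoded by *Il6st*. The *Osmr* product pairs with gp130 for oncostatin M, a cytokine that was not applied here. TNF-α binds the receptors encoded by *Tnfrsf1a* and *Tnfrsf1b*. For TGF-β signals, the type II receptor (*Tgfbr2*) binds the ligand and then activates the type I receptor kinase (*Tgfbr1*), and the co-receptor betaglycan (*Tgfbr3*) helps to present TGF-β2 in particular. In the nervous system, reactive states of astrocytes are commonly induced in culture with IL-1 and TNF.

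Both cell types were derived from mouse embryonic stem (ES) cells with the strain label B6.Cg-Tg(Hlxb9-GFP)1Tmj/J, in which the promoter of the motor neuron gene Hb9 drives enhanced green fluorescent protein. Their differentiation used retinoic acid and a smoothened agonist, and forskolin matured the ES-astrocytes. ES-astrocytes were kept in control medium or received for 24 hours IL-1α with TNF-α (the positive control for reactivity), C1Q with C5 (complement proteins, for which no receptor is among the 10 genes), IL-1β with IL-6, or TGF-β2. ES-motor neurons were placed on the ES-astrocytes afterwards, so each treatment name of an ES-motor neuron sample is that of the ES-astrocytes beneath it. The paper reports that the ES-astrocyte medium was not removed before this, with a small risk of residual cytokine that it considers negligible. Its co-cultures were fixed 24 hours after they began. After co-culture, fluorescence-activated sorting gave samples of about 200 cells, with 4 biological replicates (A to D) in each of the 10 groups of cell type and treatment. Both cell types thus share the ES line, the embryoid body stage and the final co-culture, but not the culture between these, and the sort rests on a reporter of a motor neuron gene.

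Levels are in CPM, counts per 1000000 counts of a library, scaled by TMM over the 40 libraries. ES-astrocyte libraries held 1510823 to 16054290 counts (median 4670241.5), and ES-motor neuron libraries 6557 to 19717324 (median 1213482). A count of 0 allows up to 3 counts, which is 0.229 to 2.02 CPM in the ES-astrocyte libraries and 0.167 to 171 CPM in the ES-motor neuron libraries. Of the 40 libraries, 9 fell below 20% of the median total, all of ES-motor neurons: control C, C1Q+C5 A, IL-1α+TNF-α A to D, IL-1β+IL-6 B and D, and TGF-β2 A. A receptor of low level could be missed in these. No molecular identifiers are named, so copies made by PCR count as separate reads, and floors and bounds take in no error other than that of counting.

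The sorted cells carried the markers of their labels in part. The motor neuron list of 8 genes summed to 4144 ± 1129 CPM in ES-motor neurons (SD, n = 20; 1367 to 6641, median 4129). In ES-astrocytes it summed to 272 ± 96.2 CPM (140 to 490, median 265). Its most abundant gene was the neurofilament gene *Nefl* (1855 against 146 CPM), and *Mnx1*, which encodes Hb9, stood at 1066 against 3.51 CPM. Over all treatments edgeR called 7 of the 8 higher in ES-motor neurons, beside 3.86% of all genes tested, with the smallest p for *Nefl* (adjusted p = 3.14e-21), *Nefm* (1.15e-15), *Mnx1* (1.26e-12) and *Slc5a7* (1.63e-11). *Lhx3* ran the other way and was not called (log2 fold change -0.40, edgeR adjusted p = 0.818, and -2.68 between the controls, edgeR adjusted p = 0.740). The astrocyte list of 10 genes summed to 1862 ± 712 CPM in ES-astrocytes (SD, n = 20; 642 to 2975, median 1830). In ES-motor neurons it came to 308 ± 177 CPM (0 to 708, median 356). *Fabp7*, a fatty acid binding protein of radial glia and astrocytes, led it with 1426 CPM in ES-astrocytes. *Gfap*, *Aqp4* and *Aldh1l1*, defining markers of mature astrocytes, had 0 counts in all 20 ES-astrocyte libraries, and *Gfap* had 1 count in ES-motor neuron control B. Of the 7 that passed the filter on low counts, edgeR called 6 lower in ES-motor neurons, beside 11% of all genes tested, with the smallest p for *Fabp7* (adjusted p = 3.14e-21), *Gja1* (6.70e-11), *Cd44* (1.10e-10) and *Slc1a3* (2.57e-08). A gene near 0 counts in 1 cell type passes the filter through the other alone, which sets its direction, here and in the lists below. *Sox9*, a factor of the glial lineage, was higher in ES-motor neurons (262 against 78.5 CPM; edgeR log2 fold change 1.75, SE 0.31, adjusted p = 2.99e-05).

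By the number of libraries with counts over both cell types, 3 of the 10 receptors were counted widely and 7 less so. *Tgfbr1* had counts in 20 of 20 ES-astrocyte and 19 of 20 ES-motor neuron libraries (9746 and 7012 counts in sum), *Il6st* in 19 and 18 (2152 and 1251 counts), and *Il1rap* in 8 and 17 (405 and 1015 counts). *Tgfbr3* followed with 10 and 4 libraries (171 and 74 counts). *Tnfrsf1a* had counts in 4 and 1, *Osmr* in 4 and 1, *Il6ra* in 3 and 1, *Il1r1* in 2 and 0, *Tgfbr2* in 2 and 0, and *Tnfrsf1b* in 1 and 0. Thus the chains that bind IL-1, IL-6 and TNF, and the type II receptor for TGF-β, were among the 7. An ES-astrocyte library counted 2 to 7 of the 10 receptors (median 3), and an ES-motor neuron library 0 to 5 (median 3). The 7 receptors of an ES-astrocyte library were reached in IL-1α+TNF-α B and C1Q+C5 B, and the 0 in ES-motor neuron C1Q+C5 A, the library of 6557 counts.

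**Figure D1:**
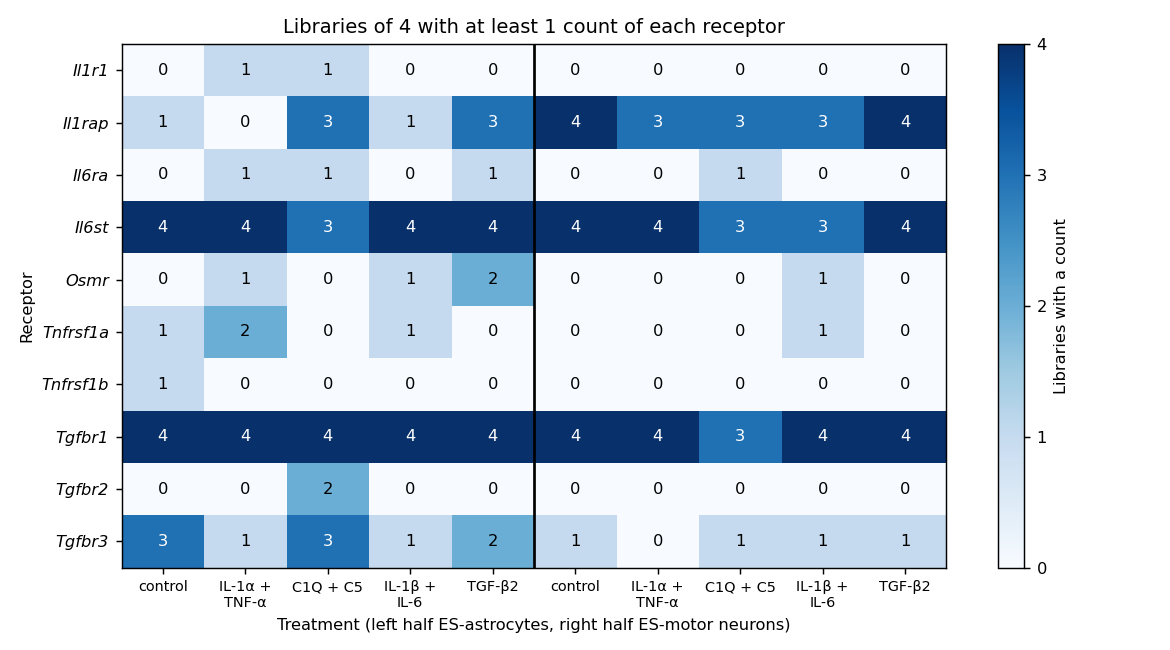
Number of libraries, of 4 in each group, in which each of the 10 receptors (vertical axis) had at least 1 count, for the 10 groups of cell type and treatment (horizontal axis). *Tgfbr1* was counted in all 4 libraries of each group except ES-motor neurons with C1Q+C5, where it was counted in 3.

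**Figure D2:**
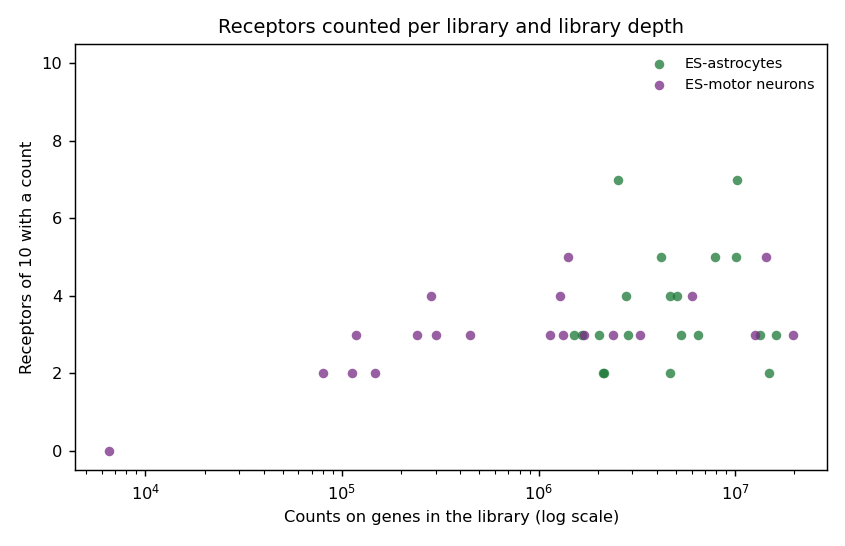
Receptors of 10 with at least 1 count (vertical axis) against the total counts of each library (horizontal axis, log scale), 1 point for each of the 40 libraries, by cell type. The ES-motor neuron library with 6557 counts held 0 receptors, and the ES-astrocyte library with 16054290 counts held 3.

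On the build GRCm38 (GENCODE M21), the widely counted receptors were *Tgfbr1* (ENSMUSG00000007613, chr4:47353222-47414931, plus strand), *Il6st* (ENSMUSG00000021756, chr13:112464070-112510086, plus strand) and *Il1rap* (ENSMUSG00000022514, chr16:26581704-26730117, plus strand). The *Il1rap* gene is overlapped by the antisense gene *Gm20319*, which had 17 counts in 2 ES-astrocyte libraries and 61 counts in 9 ES-motor neuron libraries. Whether the counting used the strand is not stated in the sources used here, and the part of antisense reads in *Il1rap* was not tested. The same holds for *Il6ra*, which had 23 counts in ES-astrocytes and is overlapped by the antisense gene *Gm42809* with 18 counts in 2 ES-astrocyte libraries and 0 in ES-motor neurons.

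Levels between receptors can be compared per length, as counts per base of exon scaled to the same sum in each library. On this scale *Tgfbr1* was above *Il6st* and above *Il1rap* in 20 of 20 ES-astrocyte libraries and in all 19 ES-motor neuron libraries with counts of either. In control ES-astrocytes the level per length averaged 36.6 ± 28.9 for *Tgfbr1*, 4.30 ± 3.90 for *Il6st* and 1.33 ± 2.65 for *Il1rap* (SD, n = 4). In control ES-motor neurons it averaged 56.6 ± 31.0 for *Tgfbr1*, 5.80 ± 2.33 for *Il6st* and 4.93 ± 2.08 for *Il1rap* (SD, n = 4). The type I TGF-β receptor was thus the most abundant receptor of these 3 in both cell types. With the longest transcript as the length, *Il1rap* in control ES-motor neurons came to 9.67 ± 4.07, above *Il6st* at 5.81 ± 2.35, so the order of these 2 genes turned with the choice of length.

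Without stimulus, the IL-1 accessory chain *Il1rap* was seen in every control ES-motor neuron library and in 1 control ES-astrocyte library. Control ES-motor neurons A to D held 31.4, 15.3, 19 and 14.9 CPM, and control ES-astrocytes A to D 0, 0, 22 and 0 CPM. The groups overlapped through ES-astrocyte C alone, which lay above ES-motor neurons B, C and D. *Il1r1*, which encodes the chain that binds IL-1, had 0 counts in all 8 control libraries. The gp130 gene *Il6st* stood at 12.6, 26.2, 26.6 and 27.5 CPM in control ES-motor neurons, beside 20.4, 45.3, 4.33 and 7.71 CPM for the control ES-astrocytes. Its values in ES-motor neurons lay within the range of the ES-astrocytes, while *Il6ra* and *Osmr* had 0 counts in these 8 libraries. *Tgfbr1* stood at 102, 114, 186 and 111 CPM in control ES-motor neurons, beside 48.9, 128, 173 and 20.8 CPM for the control ES-astrocytes. Both cell types held it in all 4 replicates, with overlapping ranges.

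Of the others at baseline, *Tgfbr2* had 0 counts in all 8 control libraries. *Tnfrsf1a* (6.20 CPM) and *Tnfrsf1b* (0.653 CPM) were counted in ES-astrocyte A alone. *Tgfbr3* had 2.39, 0.175, 0 and 0.168 CPM in control ES-astrocytes A to D and 8.98 CPM in ES-motor neuron A, with 0 in the other 3.

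In the comparison of the control groups, 3 of the 10 receptors passed the filter on low counts, and edgeR called 0 of them. A gene was called where its log2 fold change exceeded 1 in size and its adjusted p was 0.05 or lower. Of the 3 receptors 0 had an unadjusted p below 0.05, and DESeq2 called 0. Of the 10199 genes tested, 228 were called (2.24%), 58 higher in ES-motor neurons (0.569%) and 170 lower (1.67%). The edgeR log2 fold change, positive where ES-motor neurons are higher, was 1.94 for *Il1rap* (SE 1.94, adjusted p = 0.847), 0.48 for *Tgfbr1* (SE 0.59, adjusted p = 0.894) and 0.24 for *Il6st* (SE 0.89, adjusted p = 0.981). The SE is derived from the F statistic and is not reliable where a group is near 0 counts, as for *Il1rap* here and for *Tgfb2*, *Saa3*, *C3*, *Fos*, *Tagln*, *Acta2* and *Col1a1* below. The median of the 3 receptors was 0.48, beside -0.20 over all genes tested. ES-astrocyte control C held all 61 *Il1rap* counts of that group. Without it, edgeR called *Il1rap* (adjusted p = 0.0482, with 0.0482 to 1.00 over all 8 libraries omitted singly). The remaining 3 ES-astrocyte controls held 0 counts, against 347 in control ES-motor neurons. With these 3 set to 3 counts in sum, *Il1rap* was at least 143-fold higher in ES-motor neurons (log2 7.16, beside 1.94 with control C). Without control C the gene passed the filter through ES-motor neurons alone, which sets its direction. The log2 fold change of *Il6st* was -0.11 without the same library.

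Over all treatments, *Il1rap* was higher in ES-motor neurons. Its level ran from 0 to 72.0 CPM in the 20 ES-motor neuron libraries (median 15.1) and from 0 to 22 CPM in the 20 ES-astrocyte libraries (median 0). The ranges overlapped, with counts in 17 of the ES-motor neuron and 8 of the ES-astrocyte libraries. With treatment as a term, edgeR gave a log2 fold change of 2.67 (SE 0.83, two-sided adjusted p = 0.0163). *Il1rap* was the 1 receptor called of the 5 that passed the filter, in a comparison that called 1972 of 13227 genes (14.9%), 511 of them higher in ES-motor neurons (3.86%) and 1461 lower (11%). DESeq2 called *Il1rap* as well and 0 of the other receptors. Fewer cells that express a gene and less of its RNA per cell cannot be told apart in these pooled samples.

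The *Il1rap* call was lost with some sets of libraries. With the 9 shallow libraries left out, the log2 fold change was 2.22 (SE 0.99, edgeR adjusted p = 0.151). The authors' sample sheet gives a plate index of 1 to the control and IL-1α+TNF-α libraries and of 2 to the others, and the cell types were also compared within each, a comparison chosen after the data were seen. With plate index 1 alone the log2 fold change was 4.08 (edgeR adjusted p = 0.176), and with plate index 2 alone 2.15 (edgeR adjusted p = 0.142). In these 3 fits the direction was the same and *Il1rap* was not called. Over the 8 alternatives the adjusted p ran from 0.00288 to 0.176. With each of the 40 libraries left out in turn *Il1rap* was called each time (log2 fold change 2.50 to 3.70, edgeR adjusted p 0.000953 to 0.0311). All ES-astrocyte libraries carry the index primer S337 or S339 and all ES-motor neuron libraries S338 or S340, so index primer and cell type cannot be told apart.

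Neither *Tgfbr1* nor *Il6st* was called between the cell types over all treatments. *Tgfbr1* ran from 20.8 to 173 CPM in ES-astrocytes (median 80.6) and from 0 to 186 CPM in ES-motor neurons (median 111), with a log2 fold change of 0.42 (SE 0.23, edgeR adjusted p = 0.244). *Il6st* ran from 0 to 45.3 CPM in ES-astrocytes (median 16.9) and from 0 to 79.9 CPM in ES-motor neurons (median 21.2), with a log2 fold change of 0.40 (SE 0.45, edgeR adjusted p = 0.637). Both ranges overlapped over most of their width. *Tgfbr3* (log2 fold change 0.09, edgeR adjusted p = 0.980) and *Tnfrsf1a* (log2 fold change -1.73, edgeR adjusted p = 0.976) also passed the filter and were not called. The median log2 fold change of the 5 receptors was 0.40, beside -0.21 over all genes tested.

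The other 5 receptors did not pass the filter over the 40 libraries, and 3 of them were counted in ES-astrocytes only. *Il1r1* had 31 counts in C1Q+C5 B and 13 in IL-1α+TNF-α B, 2.79 and 4.48 CPM. With the 20 ES-motor neuron libraries set to 3 counts in sum, it was at least 7.72-fold higher in ES-astrocytes, and at least 2.52-fold without C1Q+C5 B. *Tgfbr2* had 22 counts in C1Q+C5 B and 7 in C1Q+C5 C, at least 5.09-fold higher in ES-astrocytes and at least 1.36-fold without C1Q+C5 B. *Tnfrsf1b* had 6 counts, all in control A, at least 1.05-fold higher with that library and at 0 without it. These bounds rest on 1 or 2 libraries each, too few for a permutation test of 20 against 20 libraries to reach p = 0.05. Of the libraries behind them, C1Q+C5 B, control A and IL-1α+TNF-α B held 16659, 15481 and 15184 genes with counts (median of ES-astrocytes 12605) and 1326, 642 and 877 CPM of the astrocyte list (median 1830), and C1Q+C5 C held 10789 genes and 2483 CPM. The part of this in the receptor counts was not tested.

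*Il6ra* and *Osmr* were counted in both cell types. *Il6ra* had 18 counts in ES-astrocyte C1Q+C5 B, 3 in IL-1α+TNF-α B and 2 in TGF-β2 A, and 15 in ES-motor neuron C1Q+C5 B. *Osmr* had 6 counts in ES-astrocyte IL-1α+TNF-α B, 9 in TGF-β2 A, 1 in TGF-β2 B and 1 in IL-1β+IL-6 C, and 15 in ES-motor neuron IL-1β+IL-6 A. A two-sided permutation test of the CPM in 20 against 20 libraries gave p = 0.289 for *Osmr*, and for *Il6ra* it could not reach p = 0.05. Each was thus seen in scattered libraries of several treatments.

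In each treatment, the mean of *Il1rap* was higher in ES-motor neurons than in ES-astrocytes. The mean with TGF-β2 was 38.7 ± 24.1 CPM in ES-motor neurons, beside 5.61 ± 4.52 CPM in ES-astrocytes (SD, n = 4). Its values were 72.0, 18.4, 40.7 and 23.8 CPM in ES-motor neurons A to D, beside 7.90, 10.4, 4.18 and 0 CPM in ES-astrocytes A to D. All 4 ES-motor neuron values lay above all 4 ES-astrocyte values. With C1Q+C5 the values were 0, 10.9, 14.7 and 32.6 CPM in ES-motor neurons, beside 0, 5.12, 2.70 and 5.42 CPM in ES-astrocytes. With IL-1β+IL-6 they were 4.82, 0, 32.7 and 6.57 CPM and 21.7, 0, 0 and 0 CPM. With IL-1α+TNF-α they were 5.83, 20.6, 6.57 and 0 CPM in ES-motor neurons, from 1, 10, 2 and 0 counts, and 0 in all 4 ES-astrocyte libraries. These ranges overlapped in each treatment but TGF-β2. The overlap with C1Q+C5 rested on ES-motor neuron A alone, a library of 6557 counts in which a count of 0 allows up to 171 CPM. There, ES-motor neurons B to D lay above all 4 ES-astrocyte values. With IL-1α+TNF-α the overlap rested on the 0 of the shallow ES-motor neuron library D.

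The cell types were compared within each of the 5 treatments for *Il1rap*, *Il6st* and *Tgfbr1*, a choice of genes and test made after the values were seen. Of these 15 exact two-sided permutation tests of CPM, 1 gave an unadjusted p of at most 0.05, that of *Il1rap* with TGF-β2 (p = 0.0286, the smallest that 4 libraries against 4 can give). For *Il1rap* the exact p was 0.114 in the control, 0.143 with C1Q+C5 and 0.543 with IL-1β+IL-6, and with IL-1α+TNF-α, where 3 of the 8 libraries held counts, the test could not reach 0.05. For *Il6st* and *Tgfbr1* the exact p ran from 0.171 to 1. With the shallow ES-motor neuron library TGF-β2 A left out, the *Il1rap* difference with TGF-β2 was 22 CPM in place of 33.1 CPM, and the exact p was 0.0571, the smallest that 3 against 4 allow. In the other treatments the *Il1rap* difference rose without shallow libraries. It was 13.3 in place of 5.60 CPM with IL-1β+IL-6, 16.1 in place of 11.2 CPM with C1Q+C5, and 15.1 in place of 14.7 CPM in the control. All IL-1α+TNF-α libraries of ES-motor neurons are shallow.

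The levels of each receptor were ordered by the group mean, and in each of the 10 orders all 9 neighbouring groups overlapped in range. For receptors other than *Tgfbr1*, *Il6st* and *Il1rap*, each group held a library at 0 counts, so this overlap was certain beforehand. For *Il1rap* the 5 ES-motor neuron groups took the 5 highest means, from TGF-β2 (38.7 CPM) through control (20.2), C1Q+C5 (14.5) and IL-1β+IL-6 (11) to IL-1α+TNF-α (8.25). The ES-astrocyte groups followed with TGF-β2 (5.61), control (5.50), IL-1β+IL-6 (5.41), C1Q+C5 (3.31) and IL-1α+TNF-α (0). For *Tgfbr1* the lowest means were those of IL-1α+TNF-α, 59.4 ± 22.7 CPM in ES-astrocytes, beside 59.5 ± 46.0 CPM in ES-motor neurons (SD, n = 4), and the highest was 128 ± 39.0 CPM in control ES-motor neurons. That rank rests on shallow libraries, among them the C1Q+C5 library of 6557 counts with a *Tgfbr1* count of 0. With shallow libraries left out, ES-motor neurons exceeded ES-astrocytes by 75.6 CPM with C1Q+C5 and 15.9 CPM in the control. The control ES-motor neurons were then no longer the highest. For *Il6st* the highest mean was 40.0 ± 29.0 CPM in ES-motor neurons with TGF-β2, and the lowest 13 ± 15.9 CPM in ES-astrocytes with IL-1β+IL-6 (SD, n = 4).

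**Figure D3:**
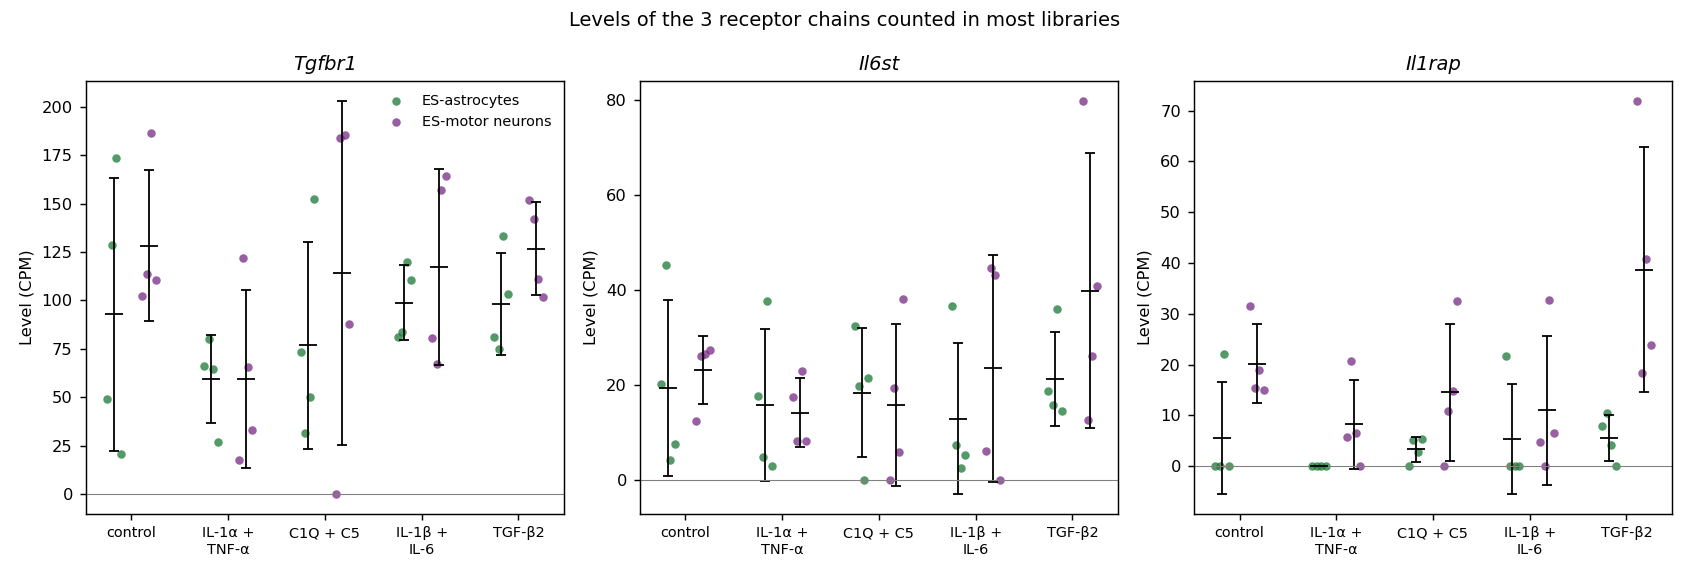
CPM of *Tgfbr1*, *Il6st* and *Il1rap* (vertical axes) in each library of the 10 groups of cell type and treatment (horizontal axis), with points for the 4 libraries and bars for the mean ± SD. The 5 highest group means of *Il1rap* are those of the ES-motor neurons, from 8.25 to 38.7 CPM, and the 10 group means of *Tgfbr1* run from 59.4 to 128 CPM.

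After each stimulus, the receptors were compared with the control of the same cell type, and these comparisons share their 4 control libraries. In ES-astrocytes, the receptor chains for a stimulus that included their own ligand were first compared. With TGF-β2, *Tgfbr1* stood at 81.1, 75, 133 and 103 CPM in replicates A to D. These lay within the range of the controls, and the log2 fold change was 0.06 (SE 0.61). *Tgfbr2* had 0 counts in the 4 TGF-β2 libraries, as in the controls, and *Tgfbr3* had 0, 0.897, 1.52 and 0 CPM. With IL-1β+IL-6, *Il6st* stood at 36.7, 7.50, 2.64 and 5.27 CPM, which ran from below the lowest control value into the range of the controls, and the log2 fold change was -0.55 (SE 1.22). *Il1r1* and *Il6ra* had 0 counts in these 4 libraries. With IL-1α+TNF-α, *Tnfrsf1a* stood at 0, 4.48, 0 and 6.90 CPM beside 6.20, 0, 0 and 0 CPM in the controls, and *Il1rap* had 0 counts beside 5.50 CPM in the controls, all from control C. Both were below the filter, with counts in too few libraries for a permutation test to reach p = 0.05.

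No ES-astrocyte receptor was called after a stimulus. Passing the filter were 2 receptors for IL-1α+TNF-α, 3 for C1Q+C5, 2 for IL-1β+IL-6 and 3 for TGF-β2, and edgeR called 0 in each comparison, with 0 at an unadjusted p below 0.05 and 0 by DESeq2. Their log2 fold changes ran from -0.72 to 0.11 (edgeR adjusted p = 1.00 in each). Of all genes tested edgeR also called 0 (0%) in each of the 4 comparisons, with 93, 106, 119 and 136 at an unadjusted p below 0.05 in the order given, and DESeq2 called 21, 37, 59 and 58. TGF-β2, IL-1β+IL-6 and C1Q+C5 libraries carry plate index 2 and the controls plate index 1, so stimulus and plate cannot be told apart there.

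ES-motor neurons were compared in the same way, by the stimulus of the ES-astrocytes beneath them. With TGF-β2, *Tgfbr1* stood at 152, 142, 111 and 102 CPM and its log2 fold change was -0.01 (SE 0.37), with a sign that turned with the processing. *Il1rap* with TGF-β2 averaged 38.7 CPM beside 20.2 CPM in the controls, with overlapping ranges. With IL-1β+IL-6, *Il6st* stood at 6.15, 44.8, 43.3 and 0 CPM, the second from 4 counts and the last from a library of 146775 counts. Its log2 fold change was -0.05 (SE 0.89), and 0.11 with the shallow libraries left out. *Il1rap* had a log2 fold change of -0.64 (SE 0.91) there. With IL-1α+TNF-α, where all 4 libraries are shallow (112775 to 445874 counts), *Tgfbr1* rested on 3, 59, 20 and 4 counts, 17.5, 122, 65.7 and 33.3 CPM. In that comparison *Il1rap* averaged 8.25 beside 20.2 CPM (exact two-sided permutation test, p = 0.114) and *Il6st* 14.3 beside 23.2 CPM (exact p = 0.171).

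Passing the filter in ES-motor neurons were 1 receptor for IL-1α+TNF-α and 3 for each other stimulus. EdgeR called 0 of them in each comparison, with 0 at an unadjusted p below 0.05 and 0 by DESeq2. Of all genes tested edgeR called 0 (0%) for IL-1α+TNF-α, for C1Q+C5 and for IL-1β+IL-6, with 143, 322 and 98 at an unadjusted p below 0.05, and DESeq2 called 1, 0 and 1. For TGF-β2 edgeR called 1 of 7947 genes (0.0126%), with 221 at an unadjusted p below 0.05, and DESeq2 called 19. The called gene was *Hoxa5*, a homeobox gene of positional identity (log2 fold change 3.05, SE 0.44, edgeR adjusted p = 0.0103), named here after its value was seen. With the shallow libraries left out edgeR called 0 genes in this comparison, and with each library left out in turn 0 to 2. TGF-β2, IL-1β+IL-6 and C1Q+C5 libraries of ES-motor neurons also carry plate index 2, and the controls plate index 1. Stimulus and plate thus cannot be told apart for these stimuli either.

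Receptors below the filter had their CPM compared by exact permutation tests (two-sided) within cell types and between the control groups, and by 100000 permutations between the cell types over all treatments. Of 40 such tests 32 could not reach an unadjusted p of 0.05, since too few libraries held counts (1 library in 21 of the tests). Of the 8 that could, 0 did, and the lowest p was 0.114. In 32 further cases a receptor had 0 counts in both groups compared.

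The interaction of stimulus and cell type was tested over the 40 libraries. It asks whether the difference from the control is alike in stimulated ES-astrocytes and in the ES-motor neurons placed on them. EdgeR called 0 of the 5 receptors that passed the filter for each of the 4 stimuli, and 0 (0%) of all 13227 genes, of which 544, 741, 922 and 638 had an unadjusted p below 0.05. DESeq2 called 0 receptors and 5, 7, 13 and 5 genes. Of the receptors 1 had an unadjusted p below 0.05, *Il1rap* with IL-1α+TNF-α (edgeR adjusted p = 1.00). There its mean was 8.25 against 20.2 CPM in ES-motor neurons and 0 against 5.50 CPM in ES-astrocytes. The fitted log2 interaction of 6.55 rests on a group at 0 counts and on ES-astrocyte control C, without which it was -1.11.

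Genes that act with these receptors were described from lists of pathway members and of response genes. Of the IL-1 pathway list, 9 of 17 genes passed the filter over all treatments and 0 were called between the cell types by edgeR, with 0 at an unadjusted p below 0.05 and 0 by DESeq2. *Tollip*, an adaptor of IL-1 receptor signalling, was its most abundant gene in both, at 45.6 ± 19.5 CPM for ES-astrocytes and 41.8 ± 20.4 CPM for ES-motor neurons (SD, n = 20). *Il1b*, *Il1rl1* and *Il1rl2* had 0 counts in all 40 libraries. Of the IL-6 and oncostatin list, 9 of 13 passed and edgeR called 0, with 1 at an unadjusted p below 0.05 and 0 by DESeq2. The transcription factor gene *Stat3* led it in ES-astrocytes (median 48.3 CPM over 20 libraries) and the kinase gene *Jak1* in ES-motor neurons (median 68.1 CPM). The signalling partners of gp130 were thus counted in both cell types. The median log2 fold changes of these lists were -0.24 and -0.03, beside -0.21 over all genes.

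Of the TNF pathway list, 7 of 12 genes passed the filter and 1 was lower in ES-motor neurons, beside 11% of all genes. This was *Adam17*, which encodes the protease that releases TNF from the cell surface, at 41.5 ± 28.1 CPM in ES-astrocytes, beside 18.9 ± 16.1 CPM in ES-motor neurons (SD, n = 20; log2 fold change -1.01, SE 0.36, edgeR adjusted p = 0.0400). The list's most abundant gene in ES-motor neurons was *Birc2* (19.1 CPM), and *Tnf*, *Lta* and *Traf1* had 0 counts in all 40 libraries. Of the TGF-β pathway list, 9 of 13 passed and 2 were lower in ES-motor neurons, both genes of ligands, of which *Tgfb3* passed the filter through ES-astrocytes alone. *Tgfb2*, the gene of the applied ligand, stood at 20.7 ± 15.8 CPM in ES-astrocytes, beside 2.01 ± 8.01 CPM in ES-motor neurons (SD, n = 20; log2 fold change -4.89, SE 1.06, edgeR adjusted p = 0.000436). The SD in ES-motor neurons was far above the mean, so few of these libraries carried that level. *Tgfb2* was also lower between the controls (log2 fold change -7.77, SE 1.73, edgeR adjusted p = 0.0403). *Tgfb3* had 754 counts in 15 ES-astrocyte libraries and 0 in ES-motor neurons, at least 132-fold higher in ES-astrocytes (edgeR adjusted p = 9.54e-05). *Smad4*, the shared mediator of the pathway, led the list at 42.4 and 37.1 CPM. The medians were -0.96 for the TNF list and -0.09 for the TGF-β list, the latter the same with *Tgfb3* at its bound.

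Response genes were lower in ES-motor neurons where they were called between the cell types over all treatments, a comparison in which edgeR called 11% of all genes lower and 3.86% higher. Of the IL-1 and TNF response list 8 of 13 passed the filter and edgeR called 2, the acute phase gene *Saa3* (log2 fold change -4.52, SE 1.19, adjusted p = 0.00447) and the complement gene *C3* (-4.25, SE 1.18, adjusted p = 0.00803), while DESeq2 called 0. Its most abundant gene was *Sod2* (166 and 198 CPM in ES-astrocytes and ES-motor neurons). Of the IL-6 response list 6 of 7 passed and 2 were called, *Pim1* (-1.73, SE 0.35, edgeR adjusted p = 0.000203), which was also its most abundant gene (147 and 43.5 CPM), and *Fos* (-3.16, SE 0.78, edgeR adjusted p = 0.00202). Of the TGF-β response list 6 of 10 passed and 3 were called, the contractile genes *Tagln* (-6.39, SE 0.53, edgeR adjusted p = 1.15e-13) and *Acta2* (-7.18, SE 0.54, edgeR adjusted p = 2.67e-14) and the collagen gene *Col1a1* (-8.06, SE 1.04, edgeR adjusted p = 3.35e-08). *Skil*, a feedback inhibitor of the TGF-β pathway, led this list at 1787 ± 944 CPM in ES-astrocytes, beside 1569 ± 1060 CPM in ES-motor neurons (SD, n = 20). The medians of the 3 lists were -2.33, -1.65 and -3.36, beside -0.21 over all genes tested. The last lies between the 3 called genes and *Smad7*, *Skil* and *Pmepa1*, at -0.33, -0.23 and -0.03, with no gene near it.

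A response gene was counted in some libraries in which the receptors of the stimulus were not. *Saa3* had 0 counts in the 4 control ES-astrocyte libraries and 109, 205, 55.0 and 16.8 CPM in ES-astrocytes with IL-1α+TNF-α A to D. With IL-1β+IL-6 it stood at 25.4, 99.1, 15.9 and 0 CPM. Every IL-1α+TNF-α library lay above every control, and 3 of 4 with IL-1β+IL-6 did. Of the 4 IL-1α+TNF-α libraries, A and C had 0 counts of *Il1r1*, *Il1rap*, *Tnfrsf1a* and *Tnfrsf1b*, and D had 14 counts of *Tnfrsf1a* alone among these. Library B, with the highest *Saa3* level, had 13 counts of *Il1r1* and also held *Tnfrsf1a*. Against a floor of 3 counts over the controls, *Saa3* was at least 1055-fold higher with IL-1α+TNF-α and at least 320-fold with IL-1β+IL-6, or 160-fold without IL-1β+IL-6 B, which held 476 of the 796 counts. For IL-1α+TNF-α, edgeR did not call it (adjusted p = 0.374, unadjusted p = 4.36e-05) and DESeq2 did (adjusted p = 2.79e-13). For IL-1β+IL-6 it did not pass the filter of edgeR, and DESeq2 called it (adjusted p = 0.00136). For the 7 pathway and response lists together, edgeR called 0 genes after any stimulus in either cell type. At an unadjusted p below 0.05 were 3, *Saa3* here, *Lifr* in ES-motor neurons with IL-1β+IL-6 and *Nfkbia* in ES-motor neurons with TGF-β2, and DESeq2 called *Saa3* in these 2 comparisons and *C3* with IL-1β+IL-6 (adjusted p = 0.0432). These genes were singled out after their values were seen.

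Markers of fibroblasts or mesenchyme differed between the cell types. This list of 9 genes summed to 271 ± 236 CPM in ES-astrocytes (SD, n = 20; 38.1 to 1085, median 202) and 0.786 ± 1.63 CPM in ES-motor neurons (0 to 5.83, median 0). All 9 were counted in ES-astrocytes, *Dcn* was the most abundant at 222 CPM, and *Col1a2*, *Lum* and *Fap* had 0 counts in ES-motor neurons. Among them 3 passed the filter, through their counts in ES-astrocytes alone, and edgeR called these 3 lower in ES-motor neurons, such as *Dcn* (222 against 0.619 CPM, edgeR adjusted p = 3.89e-18), and *Col1a1* is on the TGF-β response list too. In ES-astrocytes with IL-1β+IL-6 the list summed to 138, 38.1, 138 and 198 CPM in A to D, beside 95.5, 1085, 203 and 274 CPM in the controls. With TGF-β2 it summed to 466, 468, 430 and 402 CPM, above 3 of the 4 controls in each library, with C1Q+C5 to 398, 142, 89.7 and 200 CPM, and with IL-1α+TNF-α to 221, 257, 102 and 67.0 CPM. EdgeR and DESeq2 called 0 of the list with these 3 stimuli. With TGF-β2 its 3 tested genes moved both ways, with edgeR log2 fold changes of 0.32 for *Dcn*, -0.95 for *Col1a1* and -1.18 for *Col1a2*. For IL-1β+IL-6 edgeR called 0 of the list, with 1 gene past the filter, and DESeq2 called *Col1a2* lower (4 counts against 1195 in the controls, 1070 of them in control B, log2 fold change -7.39, SE 1.93, adjusted p = 0.0320). The part of such cells in the receptor counts and in the response genes was not tested. Microglia markers summed to 7.70 ± 7.25 CPM in ES-astrocytes (0 to 22.7, median 7.44) and 7.49 ± 7.63 CPM in ES-motor neurons (0 to 29.0, median 5.26), with *Cd68* and *Csf1r* the most abundant and *Aif1*, *P2ry12* and *Ptprc* at 0 in both. Of that list 2 of 8 passed the filter and edgeR called 0, with 0 at an unadjusted p below 0.05 and 0 by DESeq2. Endothelial markers summed to 0.926 ± 3.63 CPM in ES-astrocytes (0 to 16.3, median 0), most of it from IL-1β+IL-6 D with 16.3 CPM. They were led by *Kdr*, with *Cdh5*, *Tek* and *Tie1* at 0, and summed to 0 in ES-motor neurons. Pluripotency markers summed to 0.291 ± 0.361 CPM in ES-astrocytes, led by *Nanog*, and 0.549 ± 1.72 CPM in ES-motor neurons, led by *Dppa3*, with *Pou5f1* and *Zfp42* at 0 in both, and no gene of these 2 lists passed the filter.

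For each receptor, 1 or 2 genes with the most similar pattern are given by Pearson's r of the mean log2 CPM over the 10 groups. The search covered the named ones of the 13227 genes kept by the filter, so a high r over 10 points can arise by selection alone. The groups differ in depth, and the values are a description. For *Il1rap* they were the sodium channel subunit gene *Scn3b* (r = 0.943) and *Fbxo7* (r = 0.928), and for *Tgfbr1* *Zfp101* (r = 0.964) and *Tug1* (r = 0.958). *Il6st* was most like *Arf3* (r = 0.944). *Tgfbr3* was most like *Slc35e3* (r = 0.898) and *E130311K13Rik* (r = 0.854). For the receptors counted in 1 to 4 of the 10 groups, the pattern rests on those groups. They were *Il1r1* with *Gbp8* (r = 0.941) and *Smim3* (r = 0.932), *Il6ra* with *Ttc27* (r = 0.870) and *Gm16283* (r = 0.866), and *Osmr* with *Cd247* (r = 0.960) and *Gm28989* (r = 0.934). *Tnfrsf1a* was nearest to *Aff2* (r = 0.976) and *Gm15927* (r = 0.944), *Tnfrsf1b* to *Pml* (r = 0.947) and *Napepld* (r = 0.910), and *Tgfbr2* to *Nckap5* (r = 0.948) and *Nkx6-3* (r = 0.927).

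The promoters of 4 receptors are shown to set the 3 widely counted genes beside the type II TGF-β receptor, which works with *Tgfbr1* and was counted in 2 libraries. They were chosen after the levels were seen, and the data hold no measurement at these sites. Each is the 250 bases upstream of a RefSeq gene start on GRCm38.p6, written 5′ to 3′ on the strand of the gene, with capitals for the dinucleotide CG, which reads the same on both strands. *Tgfbr1* (chr4:47352972-47353221, plus strand) holds 29, *Il6st* (chr13:112463820-112464069, plus strand) 26, *Il1rap* (chr16:26581455-26581704, plus strand) 30 and *Tgfbr2* (chr9:116175364-116175613, minus strand) 12. Of 32851 such windows of 27025 genes (median 6 CG), 94.1%, 91.4%, 94.8% and 68.5% hold at most as many. A second window of *Tgfbr1* (chr4:47385966-47386215, plus strand) holds 3 CG, and 37.8% hold at most as many. Of the other rarely counted receptors *Il6ra* and *Osmr* hold 18 each (80.3%), *Tnfrsf1b* 12, *Tnfrsf1a* 9, and *Il1r1* 3 and 7 in 2 windows. Of the 10 receptors 9 had an entry, and *Tgfbr3* had none.
Tgfbr1: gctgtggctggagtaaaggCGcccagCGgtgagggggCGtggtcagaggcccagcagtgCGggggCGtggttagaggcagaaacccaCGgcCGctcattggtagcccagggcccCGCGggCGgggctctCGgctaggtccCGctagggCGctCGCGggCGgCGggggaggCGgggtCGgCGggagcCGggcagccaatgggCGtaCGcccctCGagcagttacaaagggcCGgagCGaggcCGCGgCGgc
Il6st: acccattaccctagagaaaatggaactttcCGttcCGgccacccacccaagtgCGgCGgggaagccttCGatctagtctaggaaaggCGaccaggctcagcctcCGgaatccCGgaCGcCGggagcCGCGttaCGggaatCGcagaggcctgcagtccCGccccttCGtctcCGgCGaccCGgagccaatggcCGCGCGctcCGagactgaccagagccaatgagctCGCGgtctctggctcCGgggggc
Il1rap: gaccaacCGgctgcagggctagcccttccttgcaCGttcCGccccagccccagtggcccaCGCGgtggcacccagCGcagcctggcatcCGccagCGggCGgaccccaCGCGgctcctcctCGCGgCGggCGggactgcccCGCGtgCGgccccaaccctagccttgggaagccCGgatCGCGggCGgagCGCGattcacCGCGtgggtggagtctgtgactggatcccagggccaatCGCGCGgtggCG
Tgfbr2: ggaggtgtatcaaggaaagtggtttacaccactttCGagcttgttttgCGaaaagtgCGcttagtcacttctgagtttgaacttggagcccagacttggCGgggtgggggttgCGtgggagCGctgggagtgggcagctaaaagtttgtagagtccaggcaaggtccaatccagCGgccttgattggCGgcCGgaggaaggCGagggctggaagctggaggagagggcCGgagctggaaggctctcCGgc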

How the data were processed

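Polyadenylated RNA of about 200 sorted cells was measured in 40 samples, 4 biological replicates for each of 10 groups. The authors primed cDNA with oligo-dT, used a template switch and Tn5, sequenced paired ends and mapped them with STAR. They deposited raw counts of reads per Ensembl gene, with no normalization. Which STAR version, counting tool, strand setting, build and annotation they used is not stated. The plate index was taken from the sample sheet that the authors deposited. GENCODE M21 (GRCm38) named 55227 of the 55487 genes, and the 260 others held 0.117% of the counts.

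Libraries were grouped by cell type and treatment. EdgeR 4.0.16 (with limma 3.58.1, R 4.3.3) kept genes by filterByExpr, scaled them by TMM and tested them two-sided by glmQLFit (robust) and glmQLFTest, with Benjamini-Hochberg adjustment over all genes tested. Calls needed an adjusted p no higher than 0.05 and a log2 fold change beyond 1 in size. The F statistic and the fold change gave the standard errors. Receptors below the filter were compared by permutation tests, exact for 4 against 4 libraries and by 100000 random permutations for 20 against 20. The pipeline was tested on simulated data.

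Alternatives were DESeq2 1.42.0 (alpha 0.1), RLE scaling, no filter, another set of libraries in the fit, the replicate letter as a block, shallow libraries (below 20% of the median total) left out, each library left out in turn, and the longest transcript as the length. In the comparison of patterns over the groups, 1 similar gene of *Il6st* is not reported here. The fits within a plate index, those against C1Q+C5 as the reference, and the tests within each treatment were chosen after seeing the data. The members and lists were chosen with earlier results of these data known. All 10 receptors are named. Of each list the text names the most abundant gene and up to 4 called genes of smallest p, further genes where they are at 0, run against their list or were called or near it after a stimulus, and for each receptor the 2 genes of highest Pearson r of mean log2 CPM (pseudocount 1). Permutation tests used scipy 1.17.1, plots matplotlib 3.10.9, and tables pandas 2.3.3 and numpy 2.4.6, in Python 3.11.15.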

Additional observations from a re-analysis of the deposited data

Results flagged for a closer look

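Each receptor was examined in each group of 4 libraries for a library far from the other 3 by Dixon's criterion, which compares the gap to the nearest library with the range of the group. Of the 100 receptor and group combinations 54 had a count, and 26 held such a library. In 21 of the 26 the other 3 libraries had 0 counts, which meets the criterion by itself, and in 5 they did not. For normally distributed values chance gives such a library in about 1 in 20 groups. These levels, with many at 0, are not so distributed, and that rate does not apply to them.

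In ES-astrocytes these were, for the IL-1 receptors, *Il1r1* with IL-1α+TNF-α in B (4.48 CPM) and with C1Q+C5 in B (2.79 CPM), and *Il1rap* in control C (22 CPM) and with IL-1β+IL-6 in A (21.7 CPM). For the IL-6 family they were *Il6ra* with IL-1α+TNF-α in B (1.03 CPM), with C1Q+C5 in B (1.62 CPM) and with TGF-β2 in A (0.427 CPM), *Il6st* with IL-1β+IL-6 in A (36.7 CPM), and *Osmr* with IL-1α+TNF-α in B (2.07 CPM), with IL-1β+IL-6 in C (0.0776 CPM) and with TGF-β2 in A (1.92 CPM). For TNF they were *Tnfrsf1a* in control A (6.20 CPM) and with IL-1β+IL-6 in B (2.29 CPM), and *Tnfrsf1b* in control A (0.653 CPM). For TGF-β they were *Tgfbr3* in control A (2.39 CPM), with IL-1α+TNF-α in B (0.689 CPM) and with IL-1β+IL-6 in B (12.1 CPM).

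In ES-motor neurons they were *Il6ra* with C1Q+C5 in B (11.6 CPM), *Il6st* in control A (12.6 CPM, the low value of its group), *Osmr* with IL-1β+IL-6 in A (1.05 CPM) and *Tnfrsf1a* with IL-1β+IL-6 in A (4.19 CPM). *Tgfbr1* stood apart in control C (186 CPM), from 49 counts. *Tgfbr3* did so in control A (8.98 CPM), with C1Q+C5 in B (10.9 CPM), with IL-1β+IL-6 in C (10.2 CPM) and with TGF-β2 in A (4.00 CPM, from 1 count).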

How the results depend on the processing

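The number of receptors called stayed at 0 for every stimulus and interaction under each alternative run and with each library left out in turn. For the cell types over all treatments it was 1 in 5 of 8 alternatives and 0 with shallow libraries left out, with plate index 1 alone and with plate index 2 alone. Between the controls it was 0 in 6 of 6 alternatives, and 0 to 1 with each library left out (1 without ES-astrocyte control C). Shallow libraries could not be left out for IL-1α+TNF-α in ES-motor neurons or for its interaction, since all 4 are shallow. The cause of each shift was not tested.

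Signs of values that were not called turned as follows. *Tgfbr1* in ES-motor neurons with TGF-β2 had a log2 fold change of 0.0085 with DESeq2, 0.0019 with RLE scaling, 0.012 in 1 fit of all 40 libraries, 0.024 with the replicate letter as a block, and 0.14 with shallow libraries left out. *Il6st* in ES-motor neurons with IL-1β+IL-6 had 0.11 with shallow libraries left out and 0.15 against C1Q+C5. The *Il6st* difference between the cell types was 0.980 CPM with IL-1α+TNF-α (RLE scaling) and 2.69 CPM with C1Q+C5 (shallow left out).

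With each library left out in turn, log2 fold changes ran from -0.11 to 1.23 for *Il6st* between the controls, from -1.92 to 0.30 for *Il6st* in ES-astrocytes with IL-1β+IL-6, from -0.92 to 0.38 for *Il6st* in ES-motor neurons with IL-1β+IL-6, from -0.28 to 0.56 for *Tgfbr1* in ES-astrocytes with TGF-β2, from -0.14 to 0.27 for *Tgfbr1* in ES-motor neurons with TGF-β2, and from -1.11 to 6.91 for the *Il1rap* interaction with IL-1α+TNF-α.

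Among all genes, the calls between the controls were 763 with DESeq2, 433 in 1 fit of all libraries, 41 with the replicate letter as a block, 81 with shallow libraries left out, and 72 to 401 with each library left out, beside 228. Over all treatments they were 742 and 1249 within plate index 1 and 2, and 1641 to 2820 otherwise, beside 1972. For ES-motor neurons with TGF-β2 they were 19 with DESeq2, 5 with no filter, 4 with the replicate letter as a block, 2 against C1Q+C5, 0 with shallow libraries left out, and 0 to 2 with each library left out, beside 1. In ES-astrocytes edgeR called 2 genes for IL-1α+TNF-α with no filter. In 1 fit of all 40 libraries it called 2 for C1Q+C5 and 2 for IL-1β+IL-6, beside 0 in each. With no filter, receptors at an unadjusted edgeR p below 0.05 were 4 for IL-1α+TNF-α, 4 for C1Q+C5, 0 for IL-1β+IL-6 and 2 for TGF-β2, with 0 called. RLE scaling moved the median of all genes in the interaction with C1Q+C5 from -0.05 to -0.27 and with IL-1α+TNF-α from -0.04 to 0.12. Libraries of the same letter were not closer in pairs (r of deviations from -0.223 to 0.392, not all above 0.1 in any comparison), and with the letter as a block 1 receptor was called over all treatments.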
